A study of Mus musculus with 24 samples.

Results

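Transcripts of Col5a1, Olfml2b, Acta2, Vwf, Itga2b and Col1a1 were followed in mouse leukaemia cells in which Ogdh was knocked down. These 6 genes, of 53465 in the deposited table, are better known from connective tissue, smooth muscle, platelets and endothelium than from myeloid leukaemia. They were chosen by their counts, which were higher at day 4 of Ogdh knockdown than in control cells or at day 0, so the size and direction of that change, and the levels it is made of, describe the choice and carry no test here. What was tested for them is the difference between the Ogdh hairpins and the difference between replicate libraries at day 0. Neither difference was itself used in the choice. The choice did use the change with each hairpin, from which the hairpin difference is made, so that test is not fully apart from it.

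RN2, the source of the RNA, is a line of mouse acute myeloid leukaemia, and all 24 libraries share the genotype Mll-Af9 with NrasG12D. Cells were transduced with retroviral vectors for a doxycycline-inducible short hairpin RNA and kept as clones. The hairpins were shRen713, the control (clones 2 and 7), shOgdh346 (clones 1 and 5) and shOgdh2081 (clones 3 and 5), the latter pair directed against Ogdh. Each clone was sampled at day 0, without doxycycline, and at day 4 of doxycycline, so the day 4 control cells had received the drug as well. Every clone and day has 2 libraries, which gives 6 groups of 4 libraries. A hairpin is thus represented by 2 clones, and nothing in the labels says whether the 2 libraries of a clone and day came from separate cultures, so p-values measure only the spread between these samples. Library totals ran from 7209186 to 20705468 counts, so that a single count was worth 0.0514 to 0.138 counts per 1000000 (CPM). A count of 0 allows up to 3 counts, or 0.154 to 0.413 CPM depending on the library, which covers counting error only. Ogdh, a subunit of the enzyme that oxidises 2-oxoglutarate in the tricarboxylic acid cycle, had a net log2 change of -1.76 (adjusted p = 4e-04, edgeR), from 163 to 48.6 CPM with the Ogdh hairpins and from 228 to 225 CPM in the control. All 17 rows for the 16 myeloid identity symbols, among them Ptprc, Spi1 and Mpo, passed the filter on low counts.

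Fibrillar collagens are secreted as trimers of alpha chains. Type I collagen is normally built from Col1a1 and Col1a2 chains, and type V collagen, which joins type I fibrils, mostly from Col5a1 and Col5a2 chains. Olfml2b encodes a secreted olfactomedin-domain protein of the extracellular matrix. Acta2 encodes the smooth muscle alpha actin by which myofibroblasts and vascular smooth muscle are recognised. Itga2b encodes the alpha chain of the platelet fibrinogen receptor, which pairs with the Itgb3 chain, and is an early marker of megakaryocytes. Vwf encodes von Willebrand factor, the adhesive multimer made by endothelium and megakaryocytes that binds platelet glycoprotein Ib.

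In GRCm38 coordinates of the deposited table, Col1a1 (ENSMUSG00000001506) lies on chromosome 11 from 94936224 to 94953042 on the plus strand and Col5a1 (ENSMUSG00000026837) on chromosome 2 from 27886425 to 28039514 on the plus strand. Olfml2b (ENSMUSG00000038463) lies on chromosome 1 from 170644532 to 170682789 on the plus strand, and Acta2 (ENSMUSG00000035783) on chromosome 19 from 34241090 to 34255336 on the minus strand. Itga2b (ENSMUSG00000034664) lies on chromosome 11 from 102453297 to 102470122 on the minus strand, and Vwf (ENSMUSG00000001930) on chromosome 6 from 125546774 to 125686679 on the plus strand. All 6 are protein-coding genes whose counts are sums over exons of the gene, so no single exon or untranslated region is resolved. Of the 6, only Col5a1 shares exon bases with other genes in the GENCODE annotation, 99 bases with 2810430I11Rik and 113 bases with Gm13372, both on the opposite strand. Whether the counting used strand is not given in the sources used here, so reads of those stretches could not be assigned with certainty.

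The sequence before the start of transcription is given for members whose start in RefSeq lies at, or close outside, that of the deposited gene. RefSeq windows (GRCm38.p6) were found for 4 of the 6 members. The windows of Col5a1 (chr2:27886175-27886424, plus strand), Olfml2b (chr1:170644282-170644531, plus strand) and Acta2 (chr19:34255374-34255623, minus strand) are shown because they give a matrix chain, a matrix glycoprotein and a contractile protein side by side. Each run holds the 250 bases before the RefSeq start, 5′ to 3′ in the direction of the gene. Capitals mark GC boxes (GGGCGG on either strand) in Col5a1 and Olfml2b, and CArG-like boxes in Acta2.
Col5a1: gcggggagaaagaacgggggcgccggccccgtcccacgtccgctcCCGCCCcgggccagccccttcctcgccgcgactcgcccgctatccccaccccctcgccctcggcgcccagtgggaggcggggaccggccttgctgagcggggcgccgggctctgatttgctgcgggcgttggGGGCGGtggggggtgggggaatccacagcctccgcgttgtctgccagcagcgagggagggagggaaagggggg
Olfml2b: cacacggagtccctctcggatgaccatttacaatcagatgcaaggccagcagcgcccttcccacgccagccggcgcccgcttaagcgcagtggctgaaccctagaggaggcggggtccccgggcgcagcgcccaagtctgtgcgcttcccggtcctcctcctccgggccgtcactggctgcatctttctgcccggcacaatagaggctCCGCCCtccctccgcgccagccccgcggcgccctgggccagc
Acta2: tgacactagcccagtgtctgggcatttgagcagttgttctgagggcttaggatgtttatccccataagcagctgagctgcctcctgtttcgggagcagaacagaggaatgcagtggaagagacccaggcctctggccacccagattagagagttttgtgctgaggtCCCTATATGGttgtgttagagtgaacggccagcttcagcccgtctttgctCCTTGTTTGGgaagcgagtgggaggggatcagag
The 3 sequences differ in composition. Guanine and cytosine made up 76.4% of the Col5a1 window and 69.6% of the Olfml2b window, against 53.6% of the Acta2 window and a median of 52.4% over all 32851 windows of that length. Col5a1 holds 2 GC boxes and Olfml2b 1, a motif found in 32.7% of all windows. Acta2 holds none. The serum response factor motif, the CArG box, was searched by its name in its strict form, and matched none of the 4 members' windows and 1.47% of all windows. A form that allows 1 guanine or cytosine in the inner 6 bases, added after the Acta2 sequence was seen, matched at 2 places in Acta2, at 84 to 75 and at 34 to 25 bases before the RefSeq start, and matched in 7.24% of all windows. The RefSeq start of Acta2 lies 37 bases outside the deposited gene. In the GENCODE annotation used for the exon overlaps Acta2 begins at 34255590, so most of its window lies inside the gene as annotated there. The other motifs searched on both strands were TATAAA (12.4% of windows), TGANTCA (6.75%), GCGTGGGCG (0.536%), AGATAA (9.99%) and GGAAGT (19.7%). Of these only GGAAGT matched a member, once in Itga2b, whose RefSeq start lies 239 bases inside the deposited gene and whose window is therefore not shown. A match of letters is a description of the sequence only.

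At day 4 all 6 genes were higher in each of the 8 libraries with an Ogdh hairpin than in any of the 4 control libraries. This held for 18.1% of the 14249 genes tested, and the choice of the members fixed it, so nothing is read from the count. For 5 of the 6, all 8 libraries also lay above the other 16 libraries (11.8% of genes). The exception was Vwf, for which 1 day 0 library reached into the range. Per length of transcript, in CPM per kilobase (RPKM), the day 4 levels with the Ogdh hairpins ran from Olfml2b (86.8 ± 19.7, SD over 4 clones) through Itga2b (6.44 ± 4.65), Acta2 (2.81 ± 0.563), Col5a1 (2.36 ± 1.53) and Vwf (0.757 ± 0.734) to Col1a1 (0.199 ± 0.0891). Itga2b and Acta2, Acta2 and Col5a1, and Vwf and Col1a1 are neighbours in that order that differ by less than their spread. Control clones at day 4 had mean levels of 2.11 RPKM for Olfml2b, 0.679 for Itga2b, 0.297 for Acta2, 0.108 for Col5a1, 0.0446 for Vwf and 0.00813 for Col1a1. In control cells at day 4, Col1a1, Acta2 and Vwf stayed under 1 CPM in all 4 libraries. These are bulk samples, in which more cells that carry a transcript and more of it per cell cannot be told apart, just as fewer cells of a type and less RNA per cell cannot be told apart.

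**Figure D1:**
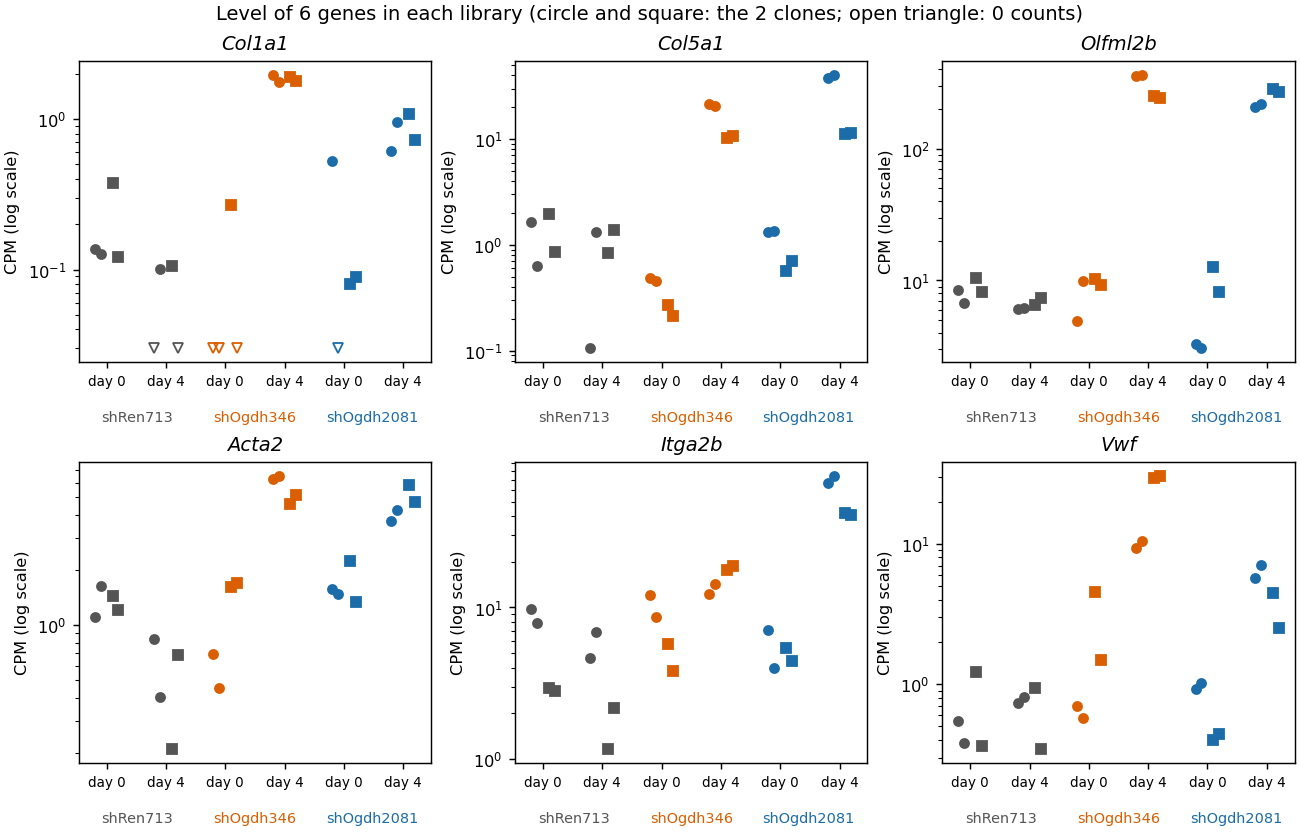
CPM of each gene in every library (log axis), by hairpin and day, with the clones of a hairpin drawn apart. In all 6 panels the 8 day 4 libraries with an Ogdh hairpin sit above the 4 day 4 control libraries, which the choice of the genes fixed.

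The 2 collagen chains had few counts at day 0. Col1a1, the main chain of type I collagen, had 1, 1, 5 and 1 counts at day 0 in the shRen713 libraries (clone 2, replicates 1 and 2, then clone 7 in the same order) and 0, 1, 1 and 0 at day 4. With shOgdh346 it had 0, 0, 2 and 0 counts at day 0 and 15, 20, 28 and 16 at day 4 (clone 1, then clone 5). With shOgdh2081 it had 4, 0, 1 and 1 counts at day 0 and 12, 10, 8 and 6 at day 4 (clone 3, then clone 5). Outside the day 4 Ogdh libraries no library held more than 5 counts of Col1a1, and the level with shOgdh346 at day 4 lay above that with shOgdh2081 in every library, 1.77 to 1.97 CPM against 0.616 to 1.08 CPM. Over clones the Ogdh hairpins went from 0.112 ± 0.101 CPM at day 0 to 1.31 ± 0.585 at day 4 (SD, n = 4), and the control from 0.208 ± 0.107 to 0.0533 ± 0.00281 (SD, n = 2). The day 4 ratio of Ogdh to control libraries was 24.5, from 115 against 2 counts, and the choice of the gene fixed its direction. The fitted net log2 change of 5.56 rests on the same few counts and depends on the small value that the fit adds to them.

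Col5a1, the alpha 1 chain of type V collagen, started near the floor and reached well above it. The control libraries held 12, 5, 26 and 7 counts at day 0 and 1, 13, 8 and 12 at day 4. The shOgdh346 libraries held 9, 4, 2 and 2 counts at day 0 and 165, 233, 151 and 96 at day 4. The shOgdh2081 libraries held 10, 12, 7 and 8 counts at day 0 and 738, 428, 82 and 96 at day 4. The day 4 libraries fell into separate levels by clone, 37.9 and 40.6 CPM in shOgdh2081 clone 3, 21.7 and 20.6 in shOgdh346 clone 1 and 10.2 to 11.5 in the clones 5 of both hairpins. The highest clone stood 3.74-fold above the lowest. Over clones the level went from 0.673 ± 0.476 to 20.04 ± 12.99 CPM (SD, n = 4) with the Ogdh hairpins and from 1.34 ± 0.308 to 0.913 ± 0.274 CPM (SD, n = 2) in the control, and the fitted net log2 change was 5.52. At day 0 the Ogdh clones had 0.468 times the control's CPM (54 against 50 counts), a value that carries no test. The clones overlapped, with shOgdh2081 clone 3 at 1.34 CPM and shRen713 clone 2 at 1.12 CPM. With only the second day 0 replicate its net log2 change was 4.72.

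None of the chains that these collagens normally pair with rose in every Ogdh clone. Col1a2, the partner chain of type I collagen, had 0 counts in all 24 libraries. Col3a1, the chain of type III collagen, had 1 count in all libraries together, at day 0 with shOgdh2081. Col5a2, the usual partner of Col5a1, changed by a net log2 of -3.20 ± 0.97 (SE; edgeR, adjusted p = 0.0283), at 4 counts over the 8 day 4 Ogdh libraries against 13 over the 4 day 4 control libraries. Its call was lost without either control clone, without shOgdh346 clone 1 and without shOgdh2081 clone 5 (adjusted p 0.0687 to 0.183). Col5a3, the third chain of type V collagen, had a mean of 1.69 CPM at day 4 with shOgdh346 and 16.5 CPM with shOgdh2081, the latter from clone 3 alone. In that clone, which also had the highest Col5a1 level, Col5a3 went from 6.29 to 30.1 CPM. In shOgdh2081 clone 5 it went from 8.46 to 2.97 CPM. The net log2 change of Col5a3 was -0.53 ± 1.17 (adjusted p = 0.762). Without shOgdh2081 clone 3 it was called lower (-1.59, adjusted p = 0.0156), and without shOgdh2081 clone 5 its sign turned (0.30, adjusted p = 0.552).

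Olfml2b was the most abundant of the 6 and was detected in every library. The control libraries were at 8.53, 6.80, 10.4 and 8.14 CPM on day 0, then at 6.11, 6.16, 6.51 and 7.33 on day 4. The shOgdh346 libraries were at 4.92, 9.91, 10.3 and 9.23 CPM on day 0, then at 357, 363, 249.95 and 243 on day 4. The shOgdh2081 libraries were at 3.28, 3.07, 12.6 and 8.24 CPM on day 0, then at 207, 216, 285 and 268 on day 4. At day 0 the 3 hairpins overlapped, and both libraries of shOgdh2081 clone 3 were the lowest. At day 4 the lowest Ogdh library was at 207 CPM and the highest control library at 7.33 CPM, and the 4 Ogdh clones lay within 1.69-fold of each other. The arm means were 7.53 ± 3.38 and 269 ± 60.8 CPM (SD, n = 4) with the Ogdh hairpins against 8.67 ± 1.43 and 6.54 ± 0.608 CPM (SD, n = 2) in the control. The fitted net log2 change was 5.60, rank 88 among 14249 genes, with Col1a1 at rank 89 and Col5a1 at rank 95. The closest relative, Olfml2a, had at most 1 count in any library.

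Acta2 was low throughout. The control libraries held 8, 13, 19 and 10 counts at day 0 and 8, 4, 2 and 6 at day 4. The shOgdh346 libraries held 13, 4, 12 and 16 counts at day 0 and 48, 74, 68 and 46 at day 4. The shOgdh2081 libraries held 12, 13, 28 and 15 counts at day 0 and 72, 45, 43 and 39 at day 4. The day 0 libraries of all hairpins overlapped, the control libraries were lower at day 4 than at day 0, and the Ogdh libraries at day 4 lay between 3.70 and 6.53 CPM, above all others. Over clones the Ogdh hairpins went from 1.41 ± 0.539 to 5.00 ± 1.00 CPM (SD, n = 4), a counting ratio of 3.68, and the control from 1.38 ± 0.0122 to 0.529 ± 0.123 CPM (SD, n = 2), a counting ratio of 0.389. The net log2 change of 3.27 thus joins 2.36 with shOgdh346 and 1.42 with shOgdh2081 to a change of -1.38 in the control.

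Acta2 shares most of its coding sequence with the other actins, so its few counts were set beside theirs. Actb, cytoplasmic beta actin, was at 3349 CPM on day 0 and 4435 CPM on day 4 in Ogdh clones and at 3348 and 2845 CPM in the control, a net log2 change of 0.61 ± 0.17 (adjusted p = 0.019, edgeR) that was lost without either control clone (adjusted p = 0.105 and 0.233) and without shOgdh346 clone 1 (0.0522). Per 1000 Actb counts there were 0.148 to 0.739 Acta2 counts in the 8 Ogdh libraries at day 0 and 0.686 to 1.95 at day 4, against 0.337 to 0.548 on day 0 and 0.0749 to 0.317 on day 4 in the control libraries. The day 4 ratios of the 2 arms did not overlap, but Acta2 was chosen for its day 4 counts, so nothing is read from that. How reads that match several actins were counted is not given in the sources used here. The skeletal and cardiac actins Acta1 and Actc1 had at most 3 and 1 counts per library, and the enteric actin Actg2 had 35 counts over the day 4 Ogdh libraries and 0 over the day 4 control libraries. Tagln, which encodes the smooth muscle actin-binding protein transgelin, had a net log2 change of 1.58 ± 0.56 (adjusted p = 0.0518) and was called under 8 alternatives, RLE scaling (0.0497) and upper-quartile scaling (0.0472) among them. Myh11, smooth muscle myosin, rose by a net 2.62 ± 0.91 (adjusted p = 0.0475) from 20 to 74 counts over the Ogdh libraries, and 27 alternatives ended that call, leaving out either control clone among them.

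Itga2b was expressed at a few CPM before doxycycline. In control cells it was at 9.77, 7.94, 2.95 and 2.79 CPM on day 0, then at 4.63, 6.86, 1.15 and 2.18 on day 4. In shOgdh346 cells it was at 12.1, 8.65, 5.77 and 3.82 CPM on day 0, then at 12.2, 14.3, 17.7 and 18.9 on day 4. In shOgdh2081 cells it was at 7.08, 3.97, 5.37 and 4.43 CPM on day 0, then at 66.9, 74.2, 42.1 and 40.9 on day 4. The shOgdh346 libraries of clone 1 barely left their day 0 level, the highest day 0 library being at 12.1 and the lowest day 4 library at 12.2 CPM, whereas the shOgdh2081 libraries were all at 40.9 CPM or above. Over clones the Ogdh hairpins went from 6.54 ± 3.02 to 35.1 ± 25.4 CPM (SD, n = 4) and the control from 5.89 ± 4.19 to 3.71 ± 2.89 CPM (SD, n = 2). The fitted net log2 change was 2.87.

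Vwf showed the widest spread between Ogdh clones, 8.64-fold at day 4. The control libraries held 4, 3, 16 and 3 counts at day 0 and 7, 8, 9 and 3 at day 4. The shOgdh346 libraries held 13, 5, 34 and 14 counts at day 0 and 71, 118, 435 and 275 at day 4. The shOgdh2081 libraries held 7, 9, 5 and 5 counts at day 0 and 112, 75, 33 and 21 at day 4. shOgdh346 clone 5 was the highest Ogdh clone on both days, at 29.4 and 30.5 CPM on day 4, and its first day 0 library, at 4.56 CPM, lay above the day 4 libraries of shOgdh2081 clone 5 (4.47 and 2.52 CPM). Over clones the Ogdh hairpins went from 1.23 ± 1.11 to 12.2 ± 11.8 CPM (SD, n = 4), and the control from 0.680 ± 0.308 to 0.717 ± 0.0752 CPM (SD, n = 2). The fitted net log2 change of 3.11 was 2.44 without control clone 7 and 2.56 with only the second day 0 replicate.

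Partners of these platelet proteins were present to different degrees. Itgb3, the beta chain that pairs with Itga2b, was at 75.1 CPM on day 0 and 115 CPM on day 4 in Ogdh clones and at 62.9 and 51.2 CPM in the control, and rose by a net log2 of 0.92 ± 0.15 (SE, adjusted p = 0.00141, edgeR). Gp1bb, the beta chain of the von Willebrand factor receptor on platelets, went from 0.384 to 4.29 CPM with the Ogdh hairpins and from 0.401 to 0.292 CPM in the control, a net rise of 3.73 ± 0.56 (adjusted p = 0.00113). Its day 4 mean was 6.54 CPM with shOgdh346 and 2.03 CPM with shOgdh2081, the same order as Vwf. Gp1ba, the chain that binds Vwf, was called higher in the net change (1.36 ± 0.34, adjusted p = 0.0134), but stood at 2.15 and 2.29 CPM with the Ogdh hairpins while the control went from 1.99 to 0.826 CPM. That call was lost without either control clone (adjusted p = 0.123 and 0.113) and in DESeq2 (0.0691). Gp9 did not pass (1.72 ± 0.66, adjusted p = 0.0686), but was called in 4 of 38 alternatives. Among them were the edgeR fits without the filter on low counts (0.0463) and without the library shOgdh346 clone 5 day 0 replicate 2 (0.0332). Another was the edgeR fit with all libraries entered singly (0.00996), which treats both libraries of a clone and day as independent. Without shOgdh346 clone 5 the net change of Gp9 was 2.02. The platelet granule genes Pf4 and Ppbp had 8 and 13 counts over the 8 day 4 Ogdh libraries and 0 in the day 4 control libraries.

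**Figure D2:**
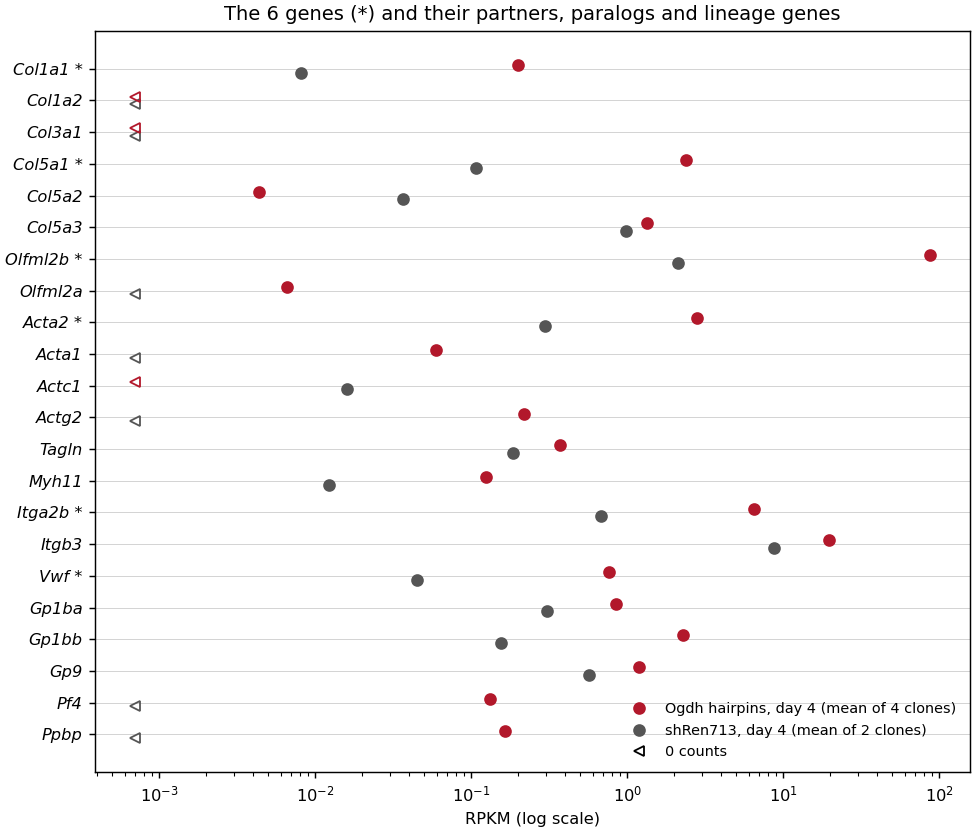
Mean level at day 4 (RPKM, log axis) of the 6 genes, marked with a star, and of their partners, relatives and lineage genes, over the 4 Ogdh clones and the 2 control clones, with open triangles for 0 counts. Gp1bb and Itgb3 stand to the right with the Ogdh hairpins, whereas Col1a2 is at 0 counts in both arms.

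Within each clone, day 0 was subtracted from day 4 on the scale of log2 CPM (prior count 2), which understates the change of genes near the floor. For Olfml2b it was 5.72 and 4.62 in the shOgdh346 clones and 5.98 and 4.68 in the shOgdh2081 clones, against -0.32 and -0.47 in the control clones. For Col5a1 it was 5.16 and 4.94, 4.74 and 3.95, against -0.58 and -0.46. Over the 4 Ogdh clones the means were 4.70 ± 0.53 for Col5a1 and 5.25 ± 0.70 for Olfml2b (SD, n = 4), a spread like that of Vwf (0.53) and smaller than that of Col1a1 (1.27). For Col1a1 the changes were 4.29 and 3.15, 1.26 and 2.43, against -0.63 and -1.32 in the control. For Acta2 they were 3.14 and 1.45, 1.28 and 1.46, against -1.06 and -1.44, so that shOgdh346 clone 1 stood apart from the other 3 Ogdh clones. For Vwf they were 3.70 and 3.32, 2.54 and 2.75, and the control clones differed in sign, 0.63 and -0.39. Itga2b had the smallest single value, 0.24 in shOgdh346 clone 1, with 1.90 in clone 5 of that hairpin, 3.63 and 3.03 in the shOgdh2081 clones and -0.61 and -0.78 in the control clones. Every Ogdh clone was above both control clones for each of the 6 genes, but the members were chosen by these changes, so nothing is read from it.

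**Figure D3:**
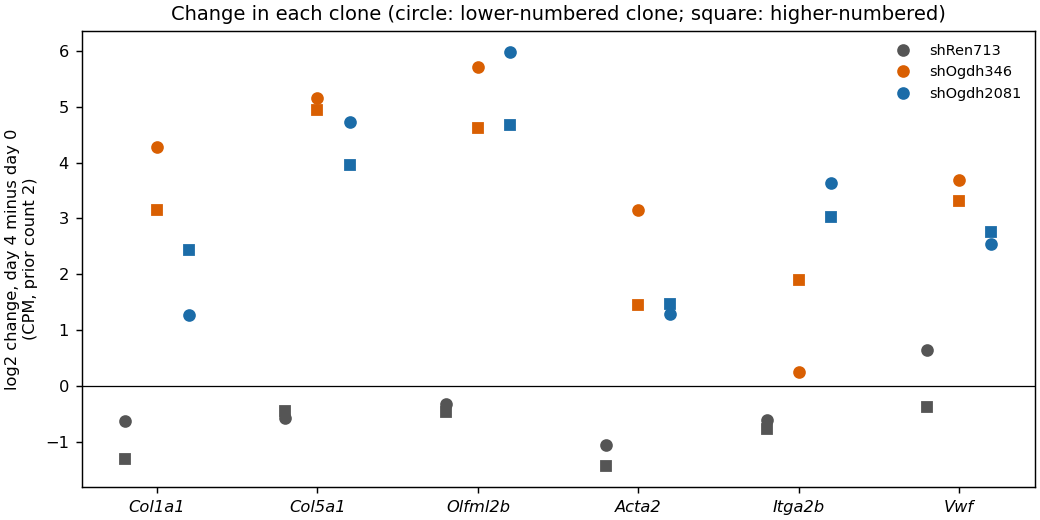
Log2 change from day 0 to day 4 in each of the 6 clones (CPM with a prior count of 2), for the 6 genes. All Ogdh clones lie above 0, as the choice of the genes favours, and the lowest, at 0.24, is Itga2b in shOgdh346 clone 1.

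Whether the 2 Ogdh hairpins changed these genes to different extents was tested over clones with edgeR. The change with shOgdh346 minus that with shOgdh2081 passed an adjusted p of 0.05 for 0 of the 6 genes and for 0.105% of all genes (15 of 14249), and 1 of the 6 had an unadjusted p under 0.05. That gene was Itga2b, with a log2 difference of -2.35 ± 0.54 (SE, adjusted p = 0.266). DESeq2 called the same gene (-2.28, adjusted p = 0.00207). It was also called by edgeR without the filter on low counts and when all 24 libraries entered singly (adjusted p = 0.000187). Those 2 fits called 409 and 1495 genes, against 15 in the main fit. The fit of single libraries treats both libraries of a clone and day as independent, so its p-value does not measure the spread between clones alone. Without shOgdh346 clone 5 the Itga2b difference was -3.10. For Col1a1 the difference was 2.78 ± 1.25 (adjusted p = 0.507) and for Col5a1 0.86 ± 0.39 (adjusted p = 0.511). For Acta2 it was 0.94 ± 0.54 (adjusted p = 0.592), for Vwf 0.77 ± 0.42 (adjusted p = 0.579) and for Olfml2b 0.04 ± 0.54 (adjusted p = 0.993). The estimate of Itga2b was the only negative one, that is, the only one larger with shOgdh2081. The sign of the Olfml2b difference changed with the setting, to -0.14 in DESeq2, to -0.52 without shOgdh346 clone 1 and to -0.81 without shOgdh2081 clone 5. With 2 clones per hairpin, values that miss the threshold do not show that the hairpins acted alike.

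**Figure D4:**
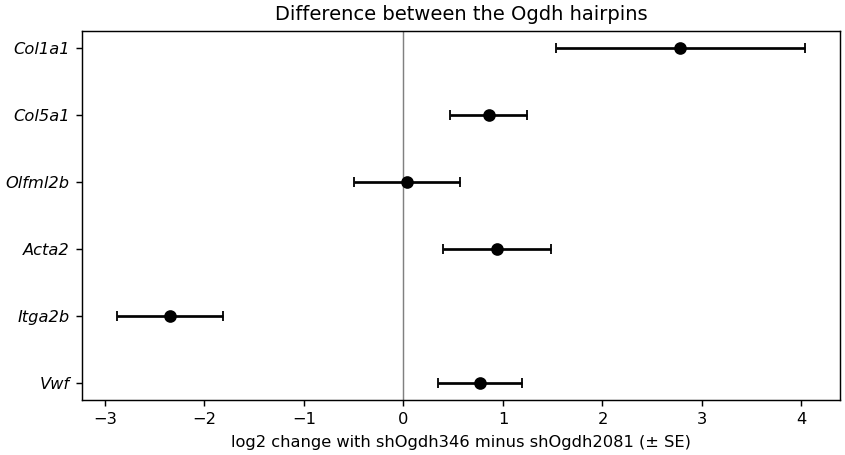
Change with shOgdh346 minus change with shOgdh2081 on the log2 scale, with its standard error, for the 6 genes. Itga2b is the only gene to the left of 0, at -2.35, and Olfml2b lies at 0.04.

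The day 0 libraries allow a comparison of replicate 2 with replicate 1 before any hairpin was induced. Across all genes these differed widely, since 43.6% of 11684 genes tested passed (edgeR, clone as a block). Of the 4 members with enough day 0 counts, Itga2b passed, with replicate 2 lower by a log2 value of -0.44 ± 0.12 (SE, adjusted p = 0.00325), 283 against 500 counts, and lower in all 6 clones. This is 1 of 4 genes, below the background. Col5a1 (-0.51 ± 0.31, adjusted p = 0.179), Acta2 (-0.22 ± 0.23, adjusted p = 0.484) and Olfml2b (-0.11 ± 0.19, adjusted p = 0.679) did not pass. Col1a1 had 13 counts in replicate 1 and 3 in replicate 2 over the 6 clones, and Vwf 79 and 39 counts, and neither passed the filter on low counts, which also looks at single libraries and not at such totals alone.

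Genes of the same pathways and cell types were taken from 14 lists, from which the 6 members were left out. The lists hold 307 genes, of which 154 passed the filter on low counts and 46 had 0 counts in all 24 libraries. A gene that passed the filter only through the group where it is high had to differ, so the counts below are a description. The background is that 17.9% of all genes tested rose and 19.8% fell in the net change, with a median net log2 change of -0.002.

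Among the 42 other collagen chains, 16 were tested, 5 rose and 1 fell, with a median net log2 change of 1.30. Col20a1 rose by 2.65 ± 0.29 (adjusted p = 0.000247), from 1.82 to 14.3 CPM with the Ogdh hairpins. The anchoring fibril chain Col7a1 rose by 1.85 ± 0.31 (adjusted p = 0.00206), from 4.39 to 16.01 CPM. The basement membrane chain Col4a1 rose by 1.54 ± 0.28 (adjusted p = 0.00301). Of 31 genes for collagen processing 17 were tested, and 4 rose and 2 fell with a median of 0.17. P4ha1, a subunit of the prolyl 4-hydroxylase that modifies collagen chains, rose from 75.8 to 267 CPM (net 1.56 ± 0.27, adjusted p = 0.0061), a call lost without either control clone (adjusted p = 0.058 and 0.0665). Colgalt1, a collagen galactosyltransferase, fell by 0.52 on the log2 scale (adjusted p = 0.00783), and it too missed the threshold without either control clone.

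Of 30 other matrix glycoproteins and proteoglycans 10 were tested, and 5 rose and 0 fell, with a median of 1.22. In summed CPM the list went from 294 to 591 at day 0 to 6842 to 9066 at day 4 with shOgdh346, and from 342 to 1382 to between 3800.5 and 18210 with shOgdh2081, and at day 4 most of it was Thbs1. Thbs1, thrombospondin-1, a matrix protein also stored in platelets, was at 327 CPM on day 0 and 8681 CPM on day 4 in Ogdh clones (net 4.86 ± 0.48, adjusted p = 0.00108). Fbln1, the matrix protein fibulin-1, had 5 counts at day 0 and 357 at day 4 over the Ogdh libraries (net 7.34 ± 0.98, adjusted p = 0.000957), but its adjusted p was 1 without control clone 7. Lamc1, a laminin chain, rose by 1.90 ± 0.20 (adjusted p = 0.000202). Among 12 relatives of Olfml2b only 4 were tested and 1 rose, Olfm4, a granule protein of neutrophils, from 131 to 3867 CPM (net 4.72 ± 0.20, adjusted p = 6.9e-06).

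The defining fibroblast markers were mostly absent. Of 22 markers 4 were tested and 3 rose (Fbln1, Pi16 and Pdgfrb), and Col1a2, Dcn, Lum, Thy1, Prrx1, Tcf21, Dpt and Twist2 had 0 counts in all 24 libraries. The summed level of the list was 75.2 to 97.8 CPM in the control libraries at day 4, 134 to 164 CPM with shOgdh346 and 104 to 179 CPM with shOgdh2081. Pi16 carried most of that sum, at 68.2 CPM on day 0 and 107 CPM on day 4 in Ogdh clones. Of 27 other smooth muscle and myofibroblast genes 14 were tested, 7 rose and 1 fell with a median of 0.69, while Myocd, the coactivator of smooth muscle genes, Cspg4 and Myl9 had 0 counts in all libraries. Cnn2 and Vcl, actin-binding proteins of many cell types, rose by 0.91 ± 0.10 (adjusted p = 0.000235) and 0.84 ± 0.13 (adjusted p = 0.00131), and Cnn3 fell by 0.87 (adjusted p = 0.00102). The smooth muscle list summed to 2615 to 2814 CPM in the control at day 4 and to 3311 to 4323 CPM over the Ogdh libraries. Flna and Tagln2, at means of 1947 and 713 CPM over all clones and days, carried most of that sum.

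Platelet and megakaryocyte genes showed the largest number of rises among the lists tied to a cell type. As a share of the genes tested, the fibroblast list stood higher, with 75% of 4 against 58.8% of 17. Of 30 genes 17 were tested, 10 rose and 1 fell, with a median of 1.28, and the summed level at day 4 was 682 to 698 CPM in the control, 1364 to 1404 CPM with shOgdh346 and 1138 to 1726 CPM with shOgdh2081. Plek, Nfe2 and Nbeal2, at means of 305, 237 and 237 CPM over all clones and days, carried most of that level. Of the 30 genes, 8 had under 10 counts in all 24 libraries together. Cd9, a tetraspanin of platelets and other cells, went from 7.11 to 106 CPM (net 4.10 ± 0.20, adjusted p = 9.08e-06). F2rl2, a thrombin receptor of the platelet surface, had a net rise of 1.83 ± 0.59 (adjusted p = 0.0413), which was lost without either control clone and without shOgdh2081 clone 3. Gfi1b, a transcription factor needed for megakaryocytes and red cells, fell by 1.66 on the log2 scale (adjusted p = 0.0186), from 18.8 to 2.89 CPM with the Ogdh hairpins and from 18.9 to 8.77 CPM in the control, and was not called without either control clone. The megakaryocyte genes Rab27b and Trpc6 had 0 counts in all 24 libraries. The part of cells of that lineage in the levels of Itga2b and Vwf was not tested.

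Of 25 endothelial genes 9 were tested, 3 rose and 2 fell, with a median of 0.33. Flt1, a receptor for vascular growth factors, rose by 1.26 ± 0.22 (adjusted p = 0.00347), a call lost without control clone 7 (0.0515). Cd34 and Icam2 fell by 1.03 (adjusted p = 0.0043) and 0.68 (adjusted p = 0.000607). Sox17, Robo4 and Emcn, which mark endothelium, had 0 counts in all libraries, and the list summed to 978 to 1109 CPM in the control at day 4 and to 761 to 1060 CPM over the Ogdh libraries. Cd34 and Pecam1 carried most of that sum. Rasip1, which fell under the minimum of 1 CPM for named genes and was chosen after its values were seen, rose by 2.79 ± 0.52 (adjusted p = 0.00332). The 2 tested erythroid genes of 17 gave 1 rise, and 7 tested mast cell and basophil genes of 13 gave 3 rises, Hdc and Gata2 among them, and 1 fall, Ctsg. Gata2 stood at 81.5 and 83.3 CPM with the Ogdh hairpins, while the control went from 76.0 to 47.6 CPM. The Hdc call (adjusted p = 0.042) was lost in 18 alternatives, leaving out either control clone among them (0.299 and 0.266), and that of Gata2 without control clone 7 (0.154).

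Itga2b was set beside the other integrin alpha chains. Of 18 rows (Itgam has 2) 15 were tested, and 7 rose and 2 fell with a median of 0.50. The myeloid chains Itgax and Itgam rose by 3.03 ± 0.50 (adjusted p = 0.00499) and 2.07 ± 0.11 (adjusted p = 1.48e-05), and Itga6 by 0.82 ± 0.12 (adjusted p = 0.00111). Itgax was not called without control clone 2 (0.0607) or clone 7 (0.0714). Itga4 and the collagen-binding chain Itga1 fell by 1.17 (adjusted p = 0.00157) and 1.10 (adjusted p = 0.000411). Of 17 receptors for collagen and von Willebrand factor 12 were tested, with 3 rises (Itgb3, Gp1ba and Gp1bb) and 2 falls (Itga1 and Adgrg1) in the net change. Adgrg1 went from 89.3 to 132 CPM with the Ogdh hairpins, but from 84.4 to 163 CPM in the control. Its net change was -0.41 ± 0.13 (adjusted p = 0.0362, edgeR), and 10 alternatives ended that call, DESeq2 (0.0715) among them. Among 30 genes of TGF-beta signalling and the serum response factor pathway, which control Acta2 and collagen genes in other cells, 23 were tested, 10 rose and 1 fell with a median of 0.45. Egr1 rose by 5.78 ± 0.68 (adjusted p = 0.00355) and Egr2 by 2.83 ± 0.47 (adjusted p = 0.00189). Egr1 was not called without either control clone. Of the 17 myeloid identity rows 6 rose and 3 fell, Lyz2, Itgam and Cd33 rising and Mpo and Elane falling, and their summed level at day 4 was 8632 to 9975 CPM in the control and 11368 to 16889 CPM over the Ogdh libraries.

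**Figure D5:**
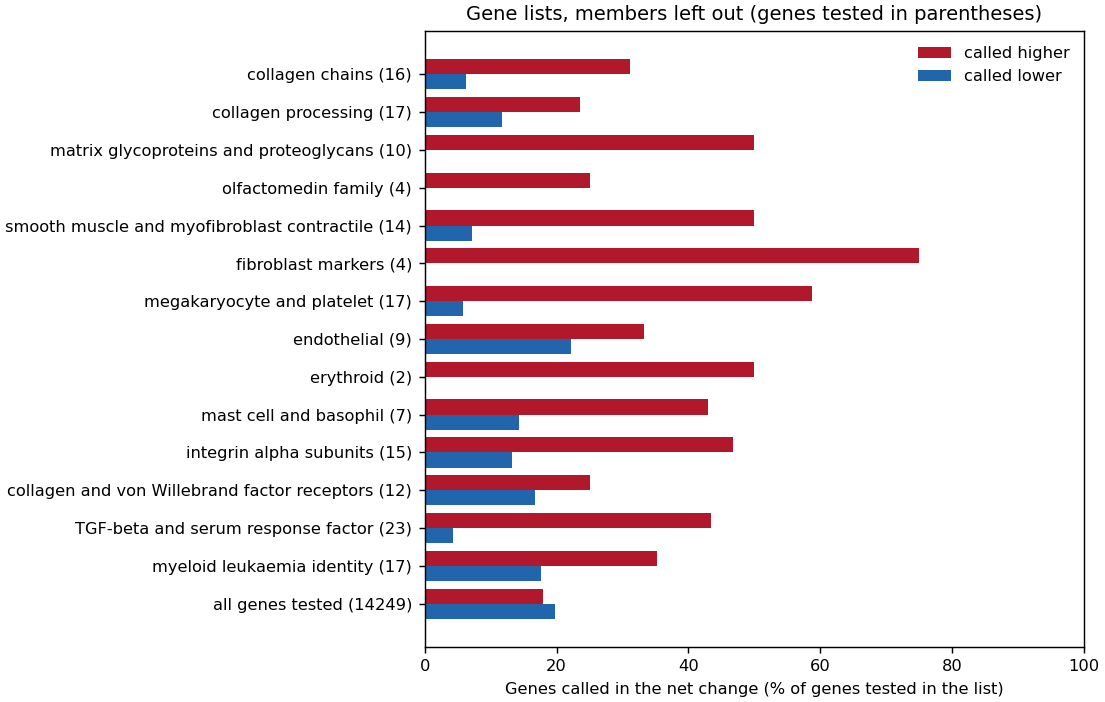
Share of the tested genes of each list, with the members left out, and of all genes tested, that were called higher or lower in the net change (adjusted p under 0.05), with the number tested in parentheses. Against 17.9% higher and 19.8% lower over all genes, the platelet list has 58.8% higher and 5.88% lower.

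Genes with the most similar pattern were found by the root mean square difference between log2 CPM profiles centred on their mean, over the 12 sums of clone and day and 11895 genes. Nearest to Col1a1 were Mocos (0.47), Rgs11 (0.49) and Cd300lf (0.50). Nearest to Col5a1 were Raet1d (0.565), Slc7a11 (0.60) and Rhoc (0.60), and nearest to Olfml2b were Wfdc21 (0.61), Il1f9 (0.62) and Ly6g5b (0.64). No member was among the nearest genes of another, though Col1a1, under the mean of 1 CPM asked of candidates, could not be. Nearest to Acta2 were Hmox1 (0.39), Gm16201 (0.47) and Rph3a (0.49). Near to Itga2b were Neo1 (0.63) and Egr2 (0.65), and nearest to Vwf were Lilrb4a (0.60), Maf (0.62) and Gp1bb (0.64). Of the 18 nearest genes, 3 for each member, 12 stayed among the nearest with a prior count of 0.5 and 11 when genes down to 0.2 CPM were admitted.

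The tested genes next to each member on its chromosome were also read. Stambpl1, on the opposite strand, ends 0.757 kb from the 3′ end of Acta2 and rose by 1.26 ± 0.15 (adjusted p = 0.00043), and Fas, the death receptor, 35.3 kb away on the other side, rose by 2.88 ± 0.47 (adjusted p = 0.00173). Cd9 lies 52.0 kb from Vwf and, as given above, rose. Rxra, a nuclear receptor 123 kb from Col5a1, rose by 1.70 ± 0.20 (adjusted p = 0.000357). Fcnb, 36.9 kb from Col5a1 on the other side, had a net change of 0.99 ± 0.45 (adjusted p = 0.123, edgeR). Ndufa9, 1135 kb from Vwf, was called lower, at -0.39 ± 0.11 (adjusted p = 0.0226, edgeR). Over all genes tested, 17.9% rose and 19.8% fell. Of the tested neighbours of Olfml2b, Itga2b and Col1a1, only Ppp1r9b was called. Fam171a2, 5.62 kb from Itga2b, had a net change of 2.86 ± 1.15 (adjusted p = 0.0795), and Nos1ap, 54.7 kb from Olfml2b, of 1.75 ± 0.72 (adjusted p = 0.0854). Atf6, 21.9 kb from Olfml2b, had a net change of 0.14 ± 0.08 (adjusted p = 0.199), Gpatch8, 5.79 kb from Itga2b, of -0.06 ± 0.09 (adjusted p = 0.627), and Ppp1r9b, 37.99 kb from Col1a1, of 0.43 ± 0.11 (adjusted p = 0.0139).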

How the data were processed

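RNA of 24 RN2 libraries was measured by sequencing of polyadenylated RNA. The deposited table gives each Ensembl gene a whole-number count. The submitters' processing notes list STAR 2.6.1a, featureCounts 1.6.3, FastQC 0.11.5, Trimmomatic 0.36 and mm10 (GRCm38), without their roles. The labels' protocol instead names a human build, another counter and an RPKM matrix, which the mouse identifiers and whole numbers contradict. Strand setting, annotation release and treatment of multiply mapping reads were not given in the sources used here.

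Both libraries of a clone and day were added, which gave 12 sums, filtered with filterByExpr (minimum count 10), scaled with TMM and tested with edgeR 4.0.16 in R 4.3.3 (robust quasi-likelihood, clone as a block, a day 4 term per hairpin, 3 residual degrees of freedom), with Benjamini-Hochberg adjustment over 14249 genes and a threshold of 0.05. The net change is the mean change of both Ogdh hairpins minus that of the control. The clone pairs day 0 with day 4 by the labels, and clone deviations on the 2 days correlated at 0.838 (shRen713), 0.603 (shOgdh346) and 0.668 (shOgdh2081) across genes. Scripts were tested on simulated data. CPM are counts per 1000000 on TMM-scaled totals, and RPKM use the deposited transcript lengths.

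The members and lists were chosen with earlier results of these data known. Named are the members, Ogdh, partners and relatives of the members, up to 3 rises and 2 falls per list (mean 1 CPM or more), and the 3 genes nearest by pattern. Some genes that this rule names are not reported here. Chromosomal neighbours and motifs were chosen later. Alternatives were other scalings, filters, DESeq2 1.42.0, no clone block, single day 0 replicates, single libraries and left-out clones or libraries.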

Additional observations from a re-analysis of the deposited data

Results flagged for a closer look

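In groups of 4 libraries, or over the 4 Ogdh clones, the value farthest from the others was set against the range of its group. By the 95% critical value of Dixon's ratio of that gap to the range, a value stood out in 4 of 42 groups, and chance gives about 1 in 20 where values vary freely. Col1a1 stood out in all 3 day 0 groups. In the shRen713 group the gap was 0.938 of the range, from clone 7 replicate 1 at 5 counts (0.379 CPM) against 1 count in each of the others. In the shOgdh346 group it was 1, with 2 counts in clone 5 replicate 1 and 0 in the others, a pattern that gives 1 whatever the count of the remaining library, and in the shOgdh2081 group 0.831, with 4 counts in clone 3 replicate 1. These values rest on 5 counts or fewer, and in each case the library was a replicate 1. Without shOgdh346 clone 5 the net log2 change of Col1a1 was 7.11.

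The change of Acta2 in shOgdh346 clone 1, 3.14 on the log2 scale, lay apart from 1.28 to 1.46 in the other Ogdh clones, a gap of 0.902 of the range. That clone had the lowest Acta2 level of the 4 at day 0, and its day 4 libraries, at 6.30 and 6.53 CPM, were the highest of the 8.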

How the results depend on the processing

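The net change of all 6 members was above 0 in every alternative run, with log2 values of 4.89 to 7.11 for Col1a1, 4.72 to 5.96 for Col5a1, 5.29 to 6.02 for Olfml2b, 2.82 to 3.74 for Acta2, 2.47 to 3.30 for Itga2b and 2.41 to 3.60 for Vwf. The members were chosen by this change, so its sign is a description only. Without the replicate block of clones, 1129 genes rose and 1603 fell in the net change, 22 list genes rose and 5 fell, and 0 genes differed between the Ogdh hairpins. Leaving out 1 clone or library gave 991 to 2539 rises and 1093 to 3010 falls, 28 to 64 list genes rising and 9 to 17 falling, 2 to 59 genes differing between the hairpins and 0 to 1 members among them. The fewest rises and falls in the net change came without control clone 7. The hairpin difference called 23 genes with upper-quartile scaling, 409 without the filter, 101 in DESeq2, 44 with day 0 replicate 1 alone and 1495 with single libraries and a replicate block. The last of these treats both libraries of a clone and day as independent. Of the members, 1 was called without the filter, in DESeq2 and in that last fit, always Itga2b (adjusted p from 8.12e-21 to 1 over all alternatives). The Olfml2b difference turned to -0.14 in DESeq2, -0.43 with day 0 replicate 2 alone, and ran from -0.81 to 0.58 without single clones or libraries. For replicate 2 against replicate 1 at day 0, 2 members passed without the filter and at a minimum of 1 CPM, and 1 to 3 with a clone left out, where Olfml2b ran from -0.37 to 0.046. The Col5a3 net change ran from -1.59 to 0.30 with a clone left out. With genes down to 0.2 CPM, 11 of the 18 nearest genes were shared.

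Of 49 named genes called in the net change, 13 kept the call in every alternative (Ogdh, Cd33, Cd9, Cnn2, Col20a1, Col7a1, Ctsg, Egr2, Elane, Gp1bb, Icam2, Itga4 and Itgam) and 36 lost it in at least 1, the causes not being tested. Replicate numbers are shared by all clones. Differences between replicates 2 and 1 correlated between clones at 0.387 to 0.497 at day 0 and at -0.003 to 0.081 at day 4. Outside the day 4 Ogdh libraries no library had more than 5 counts of Col1a1, so that its changes rest on few counts.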
